A study of Oryza sativa with 156 samples.

Results

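The 10 genes described here encode WRKY transcription factors of rice with known parts in defence and stress. They were chosen by locus identifier, as rows of the deposited count table, which holds 55986 identifiers and no gene names. The WRKY names are those in common use for the loci. The 10 are WRKY45 (LOC_Os05g25770), WRKY71 (LOC_Os02g08440), WRKY76 (LOC_Os09g25060), WRKY62 (LOC_Os09g25070), WRKY53 (LOC_Os05g27730), WRKY70 (LOC_Os05g39720), WRKY24 (LOC_Os01g61080), WRKY28 (LOC_Os06g44010), WRKY11 (LOC_Os01g43650) and WRKY30 (LOC_Os08g38990). All 10 passed the filter on low counts, as did 19338 genes of the whole table.

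Leaves of the cultivar IR64 were sampled each day from day 0 to day 12, from plants grown in a growth chamber in pots with automatic irrigation. There were 2 courses of drying, both with irrigated controls of their own. For the moderate one, pots received no more water from 14 days after sowing. For the severe one, pots were in addition lifted above the hose, which made them drain faster. Each of the 52 groups of course, arm (control or drought) and day held 3 libraries of leaf polyA RNA. Whether the libraries of a group are separate plants is not said in the labels, and the spread that p-values measure here may be technical. Leaf RNA is bulk RNA, in which fewer cells of a type and less RNA per cell cannot be told apart.

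WRKY proteins are plant transcription factors that bind the W-box, a short promoter element common in defence genes. Many WRKY genes respond within hours to pathogens, elicitors, wounding, salicylic acid, jasmonate or abscisic acid, and MAP kinases phosphorylate several of their proteins. WRKY45 is the main factor of the salicylic acid pathway in rice and raises resistance to blast fungus. WRKY28, WRKY62, WRKY71 and WRKY76 form the group IIa factors, inducible genes of which WRKY28, WRKY62 and WRKY76 are known as repressors of defence genes. WRKY71 is known as a repressor of gibberellin signalling in the aleurone. WRKY53 is an elicitor-induced activator of blast defence, and WRKY70 favours defence against chewing insects over growth. WRKY24 represses gibberellin and abscisic acid signalling in aleurone cells. Raised expression of WRKY30 or of WRKY11 in transgenic rice has been tied to tolerance of drought, for WRKY11 together with heat.

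Library totals ran from 6.425 to 26.24 mega counts (M) with a median of 16.775 M, and the arm medians were 18.29 (moderate control), 17.76 (moderate drought), 12.29 (severe control) and 15.25 M (severe drought). Every identifier of chromosomes 10, 11 and 12 was at 0 in all libraries, which touches none of the 10 WRKY genes but removes some of the genes set beside them. Of 7 photosynthesis markers of leaf, the 4 on these chromosomes were at 0. The others summed to 3900 to 64500 CPM (counts per mega count of the library), against 6.08 to 18.6 CPM for 2 silicon transporters of root. The libraries also fell into a set of 49 and a set of 107 by a few marker loci. The set of 49 held the severe controls of days 3-12, the severe drought libraries of days 0-5 and 1 moderate drought library of day 0. In the severe course, control and drought therefore lay in the same set on days 3-5 only, and on the other days set and arm cannot be told apart.

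The levels are given in CPM, scaled between libraries by TMM. CPM is not corrected for gene length, so levels are compared across libraries and never between genes. WRKY53 and WRKY45 were well covered, with medians of 2108 and 757.5 counts per library. WRKY71 had a median of 123 counts, WRKY30 of 73.5 and WRKY24 of 17.5. The other 5 were sparse: the median was 8 counts for WRKY76 and WRKY11, 4 for WRKY28, 3.5 for WRKY62 and 2 for WRKY70. WRKY62 was at 0 counts in 25 libraries, WRKY28 in 21 and WRKY70 in 17. At such depth a doubling of a sparse gene rests on a handful of counts.

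The steadiest gene of the 10 was WRKY30, which ran from 2.73 to 7.18 CPM over all libraries around a median of 4.73 CPM. WRKY53 ran from 63.5 to 532 CPM (median 133), and WRKY45 from 2.68 to 279 CPM (median 51.8). WRKY11, never abundant, ran from 0 to 1.45 CPM (median 0.516). The inducible group IIa genes spread far more widely. WRKY71 ran from 1.54 to 1070 CPM (median 7.33) and WRKY76 from 0 to 300 CPM (median 0.54). WRKY62 ran from 0 to 10.5 CPM (median 0.204) and WRKY28 from 0 to 8.07 CPM (median 0.269). WRKY24 reached 55.9 CPM against a median of 1.12 CPM, and WRKY70 reached 3.15 CPM against 0.163 CPM. In each of these wide genes the top value lay in the same library, an irrigated one.

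**Figure D1:**
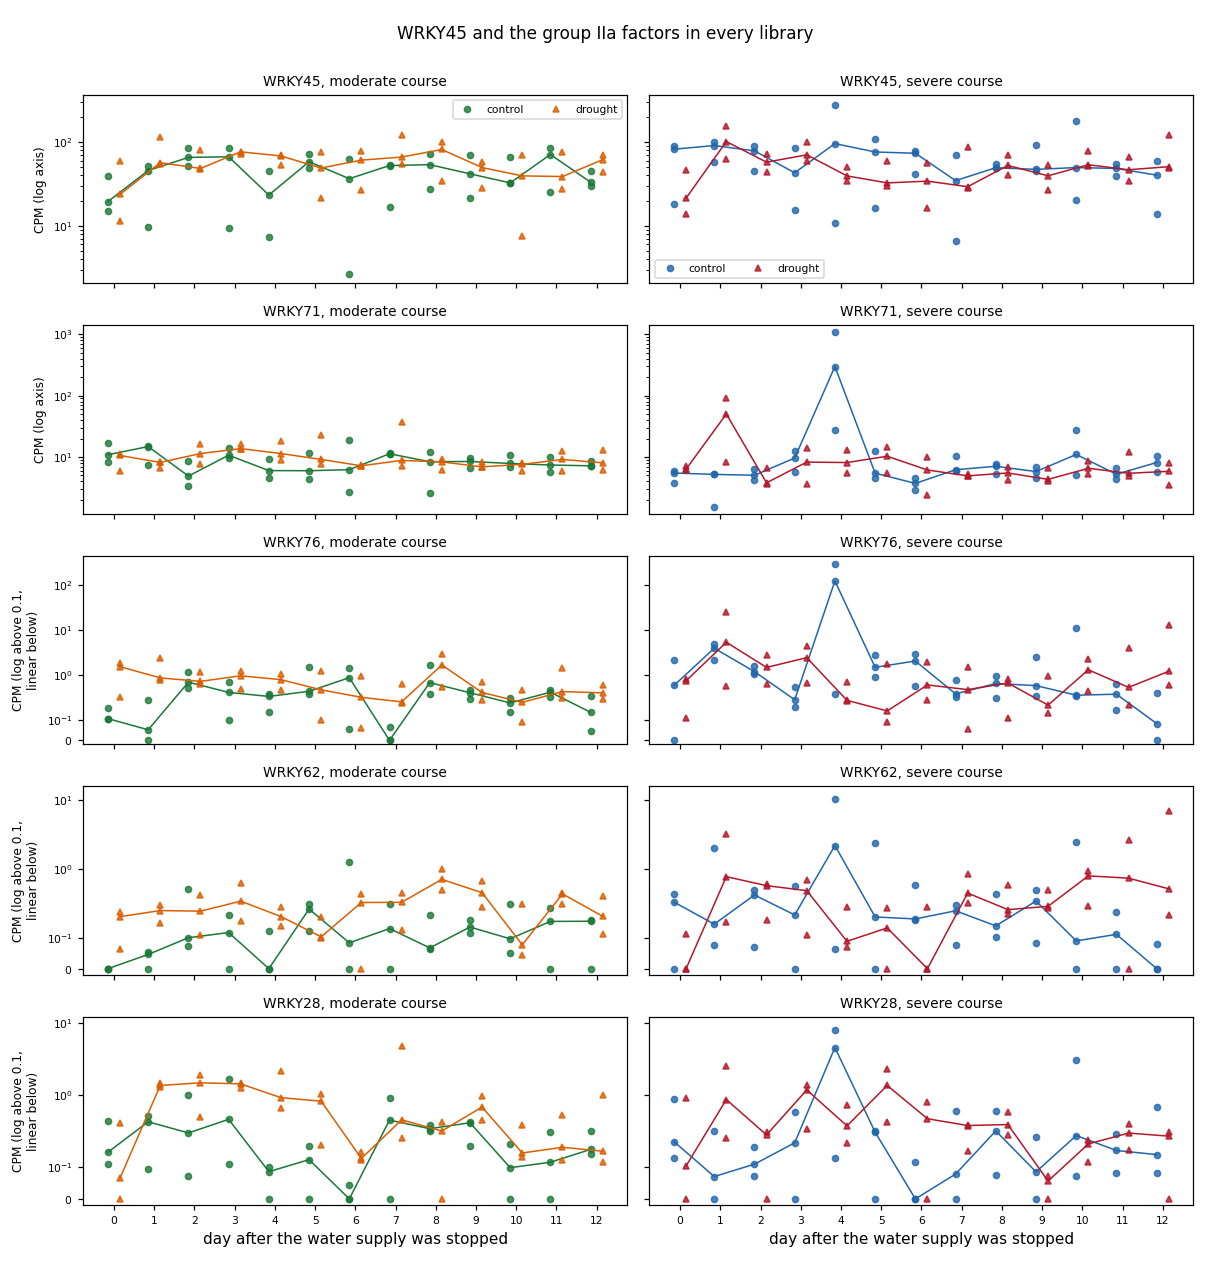
CPM of WRKY45 and of the group IIa genes WRKY71, WRKY76, WRKY62 and WRKY28 in each library by day (0 to 12), with the moderate course on the left and the severe course on the right; points are libraries, lines join the medians of the 3 libraries of an arm and day. The severe controls of day 4 include the highest points of all 5 genes, up to 1070 CPM for WRKY71.

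**Figure D2:**
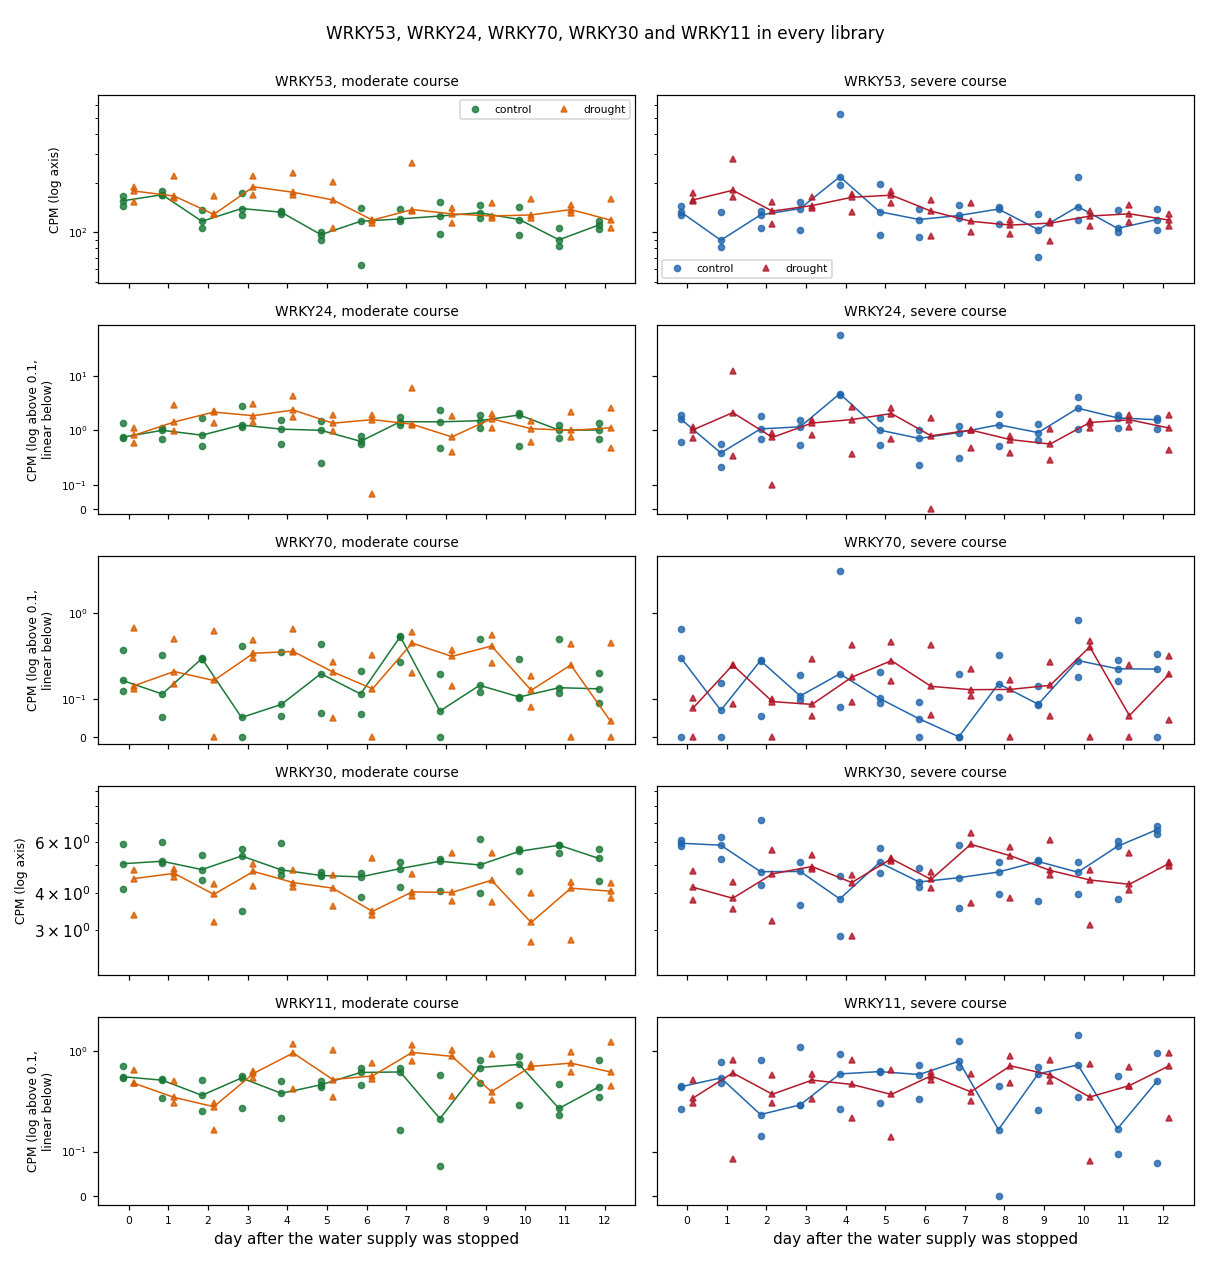
CPM of WRKY53, WRKY24, WRKY70, WRKY30 and WRKY11 in each library by day, drawn in the same way, with points for libraries and lines for medians of 3. WRKY30 stays between 2.73 and 7.18 CPM throughout, and its moderate drought values lie mostly under the controls.

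That library was the second severe control of day 4, with 11.07 M counts. It was the highest of all libraries for 8 of the 10 genes. WRKY76 stood there at 555 times its median over all libraries, WRKY71 at 146 times, WRKY62 at 51.5 times, WRKY24 at 50 times, WRKY28 at 30 times and WRKY70 at 19.3 times. WRKY45 and WRKY53, the best covered of the genes, stood less far above their medians, at 5.38 and 3.99 times. WRKY30 went the other way: its 2.85 CPM there was the lowest of the 39 severe controls. The third control of the same day was high too, with 298 CPM of WRKY71 and 125 CPM of WRKY76, while the first had 27.5 and 0.393 CPM.

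Taking 4 times the median as a mark, 6 libraries had at least 3 of the 10 genes above it and 119 had none. The 6 were the second and the third severe control of day 4 (7 and 5 genes), the second severe control of day 10 (4 genes), the third and the second severe drought library of day 1 (4 and 3 genes) and the third moderate drought library of day 7 (3 genes). Irrigated and droughted pots were thus both among them. In the second severe control of day 4, genes of some other lists stood high as well. Of 13 jasmonate synthesis and JAZ genes with counts, 12 had their highest level of all libraries there. So did 12 of 30 other WRKY loci. The same held for 4 of 7 salicylic acid and MAP kinase genes and 3 of 5 abscisic acid and drought markers. LOC_Os03g08330, of the jasmonate and JAZ list, had 773 CPM, 251 times its median. None of the 5 diterpenoid genes, the 1 pathogenesis-related gene, the 7 clock genes or the 3 leaf markers peaked in this library. What set these libraries apart was not tested. Because the mark was set on the levels of the WRKY genes themselves, after they had been seen, values without the 6 libraries are given beside the results as a description of what those libraries carry.

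**Figure D3:**
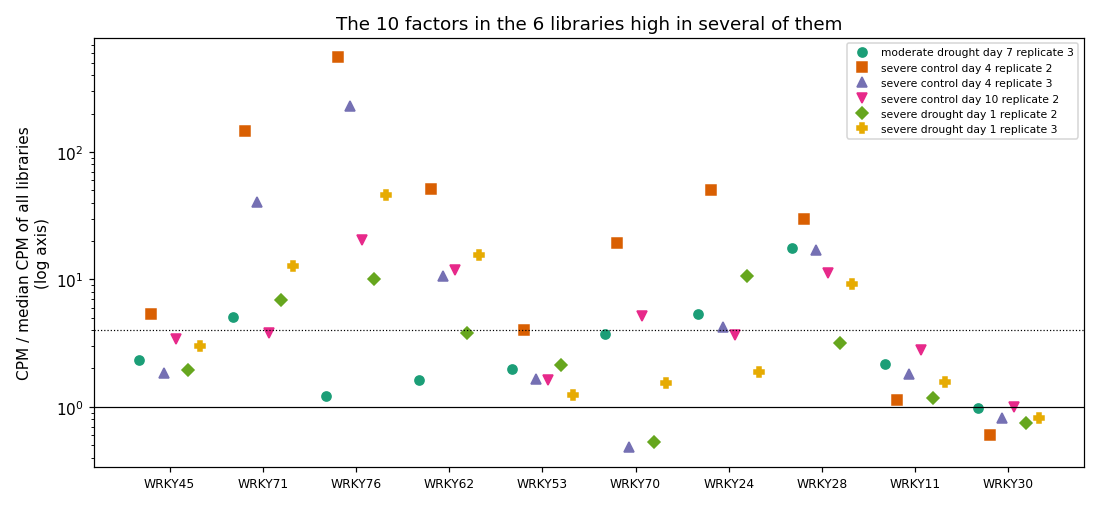
Level of each WRKY gene, as a multiple of its median CPM over all libraries (log axis), in the 6 libraries where at least 3 of the 10 genes exceeded 4 times their median (dotted line). The second severe control of day 4 reaches 555 times for WRKY76 and 146 times for WRKY71.

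Drought was compared with control in the moderate course over days 1-4, 5-8 and 9-12, each as the mean of the 4 daily log2 fold changes. A gene was called when its adjusted p (edgeR's quasi-likelihood test, Benjamini-Hochberg over all 19338 genes) was under 0.05, and only called genes are said to have risen or fallen. On days 1-4, WRKY28, WRKY24 and WRKY53 rose in moderate drought and the other 7 were not called. That is 3 of 10, where 42.5% of all genes tested were called and 21.1% called higher, so the share lay near the background. The median log2 fold change was 0.74 over the 10 genes and 0.02 over all genes, with 9 of the 10 above 0.

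WRKY28, the group IIa repressor, showed the largest change. On days 1-4 its control libraries ran from 0 to 1.67 CPM with a median of 0.202, and its drought libraries from 0.489 to 2.11 CPM with a median of 1.38. The ranges overlapped through 1 control on each of days 1, 2 and 3. WRKY28 rose by 2.09 on the log2 scale (SE 0.42, 4.26-fold, adjusted p = 2.3e-05). On day 1 the controls had 0.515, 0.093 and 0.423 CPM and the drought libraries 1.35, 1.28 and 1.46 CPM. On day 4 they had 0.0851, 0.1 and 0 CPM against 0.914, 0.666 and 2.11 CPM. On both days every drought library lay above every control, and both days were called by themselves (log2 2.03, SE 0.77, adjusted p = 0.048 and log2 4.12, SE 1.07, adjusted p = 0.0082). On day 1, 19.4% of all genes were called and 8.02% called higher, and on day 4 these shares were 9.09% and 4.26%. Over all genes and days of the moderate course, all 3 drought libraries lay above all 3 controls in 12.6% of comparisons. The rise of days 1-4 kept its call in all 11 alternatives tried, between 1.51 and 3.06 on the log2 scale. Those that left out high libraries or severe controls of day 4 removed no library of this comparison.

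The other group IIa genes had positive log2 fold changes on moderate days 1-4 that did not pass the test. On days 1-4 WRKY76 had a median of 0.36 CPM in control and 0.839 CPM in drought, a log2 fold change of 1.51 (SE 0.69, adjusted p = 0.067). WRKY62, its neighbour by locus number on chromosome 9, had medians of 0.0626 and 0.247 CPM and a log2 fold change of 1.58 (SE 0.8, adjusted p = 0.1). WRKY71 differed least of the group, at 0.42 (SE 0.28, adjusted p = 0.23). The spread of each gene is estimated over all 52 groups, and the high severe libraries enter it. Fitted on the libraries of this comparison only, WRKY76 was called (edgeR 1.5, adjusted p = 0.00073; DESeq2 1.55, adjusted p = 2.2e-05), as was WRKY71 (edgeR 0.41, adjusted p = 0.047; DESeq2 0.42, adjusted p = 0.027). DESeq2 on these libraries also called WRKY62 (1.72, adjusted p = 0.0052), which makes 6 genes of the 10 higher. Of all genes, 9205 of 19333 were called in that fit in either direction, and 9144 of 17944 in the edgeR fit. Without the 6 high libraries, none of which lies in this comparison, WRKY76 was called at 1.52 (adjusted p = 0.012).

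WRKY53, the elicitor-induced activator, rose slightly. Its days 1-4 controls ran from 106 to 180 CPM (median 136) and its drought libraries from 129 to 230 CPM (median 170). The log2 fold change was 0.31 (SE 0.11, adjusted p = 0.019), a 1.24-fold change. On day 4 the controls had 129, 135 and 133 CPM and the drought libraries 176, 170 and 230 CPM, and on day 5 they had 100, 90.2 and 97 against 158, 107 and 204 CPM. The arms did not overlap on either day. WRKY53 was called on day 5 by itself (log2 0.71, SE 0.23, adjusted p = 0.029), where 12.7% of all genes were called and 6.36% called higher. Its drought mean was higher on 12 of the 13 days. WRKY24, the aleurone repressor, had 0.507 to 2.75 CPM in control (median 1.08) and 0.952 to 4.21 CPM in drought (median 2), and rose by 0.87 (SE 0.35, adjusted p = 0.035). Its arms overlapped widely over the 4 days. The calls of days 1-4 were lost for WRKY53 without replicate 1 or 3 (adjusted p up to 0.15) and for WRKY24 without replicate 2 or 3 or without the filter on low counts (up to 0.16).

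On days 5-8 of moderate drought WRKY53 and WRKY11 rose, 2 of 10 against 28.7% of all genes called and 14.2% called higher. WRKY53 ran from 63.5 to 154 CPM in control (median 118) and from 107 to 265 CPM in drought (median 133), with a log2 fold change of 0.35 (SE 0.11, adjusted p = 0.015). WRKY11, the heat and drought gene, ran from 0.0679 to 0.675 CPM in control (median 0.481) and from 0.352 to 1.13 CPM in drought (median 0.777), and rose by 0.7 (SE 0.26, adjusted p = 0.031). Both pairs of ranges overlapped. The highest drought library of WRKY53 was the third of day 7, also one of the 6 high libraries, in which WRKY28 had 4.79 CPM against 0.45 and 0.249 CPM in the other drought libraries of that day. Without the 6, WRKY53 stood at 0.25 (adjusted p = 0.05, not called) and WRKY11 kept its call at 0.67 (adjusted p = 0.043). Without replicate 3 neither gene was called. WRKY11 also lost its call without replicate 2 and without the filter on low counts. WRKY53 also lost its call with edgeR on the libraries compared only. Over the alternatives the adjusted p reached 0.26 for WRKY11 and 0.64 for WRKY53. WRKY28 had a log2 fold change of 1.68 on these days (SE 0.73, adjusted p = 0.07).

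On days 9-12 WRKY30 fell and no other of the 10 was called, where 23.9% of all genes were called and 11.6% fell. WRKY30 is the gene tied to drought tolerance when overexpressed. Its controls ran from 4.02 to 6.13 CPM (median 5.54) and its drought libraries from 2.73 to 5.52 CPM (median 4.05). It fell by 0.44 on the log2 scale (SE 0.09, adjusted p = 0.00014), to 0.737 of the control level. On day 10 the controls had 4.76, 5.7 and 5.58 CPM and the drought libraries 4.02, 3.18 and 2.73 CPM. On day 11 they had 5.5, 5.87 and 5.86 against 2.77, 4.39 and 4.17 CPM, and on day 12 they had 5.28, 4.42 and 5.7 against 3.87, 4.07 and 4.36 CPM. All drought libraries of these 3 days lay under all controls of the same day, whereas on day 9 the arms overlapped.

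The lower level of WRKY30 in moderate drought was small and ran through the course. The drought mean lay under the control mean on 13 of 13 days, day 0 included, and every drought library lay under every control on 5 days (1, 2, 10, 11 and 12). Over all genes and days of the course, 13% of the gene-day comparisons had all 3 drought libraries below all 3 controls. On days 1-4 the log2 fold change was -0.21 (SE 0.09, adjusted p = 0.064) and on days 5-8 it was -0.14 (SE 0.1, adjusted p = 0.28). Taken alone, day 11 was called at -0.59 (SE 0.19, adjusted p = 0.038), where 5.55% of all genes were called and 2.62% called lower. The call of days 9-12 held in all 11 alternatives, between -0.5 and -0.41. Those that left out high libraries or severe controls removed no library of this comparison.

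WRKY45, the salicylic acid factor, was not called in the moderate course in any stretch. Its medians on days 1-4 were 48.6 CPM in control and 69 CPM in drought, with log2 fold changes of 0.67 (SE 0.35, adjusted p = 0.11) on days 1-4, 0.47 on days 5-8 and 0.04 on days 9-12. WRKY70 went from 0.8 (SE 0.4, adjusted p = 0.1) to 0.31 and 0.1 on days 5-8 and 9-12, on a median of 2 counts per library. Day 0 had 0 of the 10 called by edgeR, where 4.7% of genes were called. DESeq2 called 0 of the 4 with an adjusted p, where 1751 of 14450 genes were called. In the edgeR test 1 of the 10 had an unadjusted p under 0.05. This was WRKY76, with 0.107, 0.109 and 0.185 CPM in the day 0 controls and 1.56, 0.326 and 1.85 CPM in the drought pots (adjusted p = 0.22; unadjusted p = 0.038). WRKY62 had 0 CPM in all 3 controls and 0.204, 0.0652 and 0.238 CPM in the drought pots (edgeR adjusted p = 0.39). Neither gene overlapped between the arms on day 0. Over all genes and days of the course, 12.6% of comparisons had all 3 drought libraries above all 3 controls.

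In the severe course, day 1 and day 4 stood out in opposite directions. Over days 1-4, 0 of the 10 were called, where 47.4% of all genes were called. The log2 fold changes over days 1-4 lay between -0.9 (WRKY76, SE 0.66, adjusted p = 0.26) and 0.49 (WRKY28, SE 0.61, adjusted p = 0.53). Their median was -0.24, against 0.01 over all genes. DESeq2 called 0 as well, and at an unadjusted p under 0.05 there was 1, WRKY71 (-0.59, unadjusted p = 0.048). Both days were singled out after their values had been seen.

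On severe day 1, WRKY71, WRKY24, WRKY28 and WRKY53 rose and WRKY30 fell, 5 of 10 where 36.3% of all genes were called, 19.1% higher and 17.1% lower. The WRKY71 controls had 1.54, 5.38 and 5.21 CPM and the drought libraries 8.32, 50.2 and 92.9 CPM, a log2 fold change of 3.62 (SE 0.61, adjusted p = 9.6e-07). WRKY53 had 81.5, 89.7 and 134 CPM against 181, 283 and 164 CPM (log2 1.04, SE 0.23, adjusted p = 0.00015). In both genes every drought library lay above every control. Over all genes and days of the severe course, 13.1% of comparisons had all 3 drought libraries above all 3 controls, and 13.5% had them below. WRKY24 had 0.384, 0.559 and 0.213 CPM against 0.336, 12 and 2.11 CPM (log2 3.63, SE 0.82, adjusted p = 0.00023), and WRKY28 had 0, 0.0698 and 0.319 CPM against 0.252, 0.861 and 2.49 CPM (log2 3.04, SE 1.01, adjusted p = 0.012). The rise of these repressor genes sat in the second and the third drought libraries, the first staying among the controls. WRKY30 had 6.23, 5.86 and 5.26 CPM in control and 4.37, 3.53 and 3.85 CPM in drought, with no overlap (log2 -0.56, SE 0.19, adjusted p = 0.018).

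Those second and the third drought libraries of day 1 are among the 6 high libraries. Without the 6, the drought arm of day 1 is its first library alone, assumed to vary like the other groups, and WRKY53 was the gene still called (log2 0.81, adjusted p = 0.017). WRKY71 stood at 0.99 (adjusted p = 0.27), WRKY28 at 0.7 (0.81), WRKY30 at -0.42 (0.3) and WRKY24 at -0.16 (0.96). On this day the drought libraries also lay in the library set of 49 and the controls in the set of 107, and the part of that difference in the result was not tested.

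On severe day 4 the order turned: 7 of the 10 genes were lower in drought than in control, where 16.2% of all genes were called and 10.8% called lower. WRKY71 had 27.5, 1070 and 298 CPM in control and 8.13, 12.8 and 5.47 CPM in drought (log2 -5.71, SE 0.64, adjusted p = 1.7e-12). WRKY76 had 0.393, 300 and 125 CPM against 0.268, 0.714 and 0.278 CPM (log2 -8.3, SE 1.01, adjusted p = 4.4e-11). WRKY62 had 0.0655, 10.5 and 2.19 CPM against 0.0893, 0.0714 and 0.278 CPM (log2 -4.75, SE 1, adjusted p = 0.00013). In all of them the second and the third controls were the extreme libraries, and the drought libraries lay in the usual range of each gene. WRKY24 (log2 -3.76, SE 0.62), WRKY28 (-3.24, SE 0.75), WRKY70 (-1.95, SE 0.72) and WRKY53 (-1.02, SE 0.23) were called in the same direction, with adjusted p from 9.4e-07 to 0.047. WRKY53 had 196, 532 and 219 CPM in control and 171, 164 and 133 CPM in drought. In WRKY53, WRKY71 and WRKY24 even the first control lay above all drought libraries.

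WRKY45 had 10.7, 279 and 95.6 CPM in control and 39.4, 34.3 and 50.4 CPM in drought on that day, with drought inside the control range. WRKY30 had 4.58, 2.85 and 3.83 CPM against 2.86, 4.36 and 4.64 CPM, and WRKY11 stayed under 1 CPM in every library. Without the second and the third controls, the control arm is its first library alone, assumed to vary like the other groups, and none of the 10 was called on day 4. WRKY76, WRKY62, WRKY28 and WRKY70 then changed sign, to log2 values of 0.16, 1, 1.62 and 0.33. WRKY71 kept a log2 value of -1.63 (adjusted p = 0.65) and WRKY24 of -1.52 (adjusted p = 0.78), while WRKY53 stood at -0.33 (adjusted p = 0.88). Day 4 is a day on which both severe arms lay in the same library set. Fitted on the 6 libraries of the day alone, DESeq2 called WRKY71 (-5.75, adjusted p = 0.00039), WRKY76 (-8.41, adjusted p = 0.00022), WRKY62 (-4.91, adjusted p = 0.0061) and WRKY28 (-3.32, adjusted p = 0.028), 4 of the 9 genes with an adjusted p. Of all genes, DESeq2 called 1205 of 17444 in that fit. On the same libraries edgeR called none of 16263 genes. There 5 of the 10, among them WRKY76, WRKY62, WRKY28 and WRKY70, did not pass its filter on low counts.

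**Figure D4:**
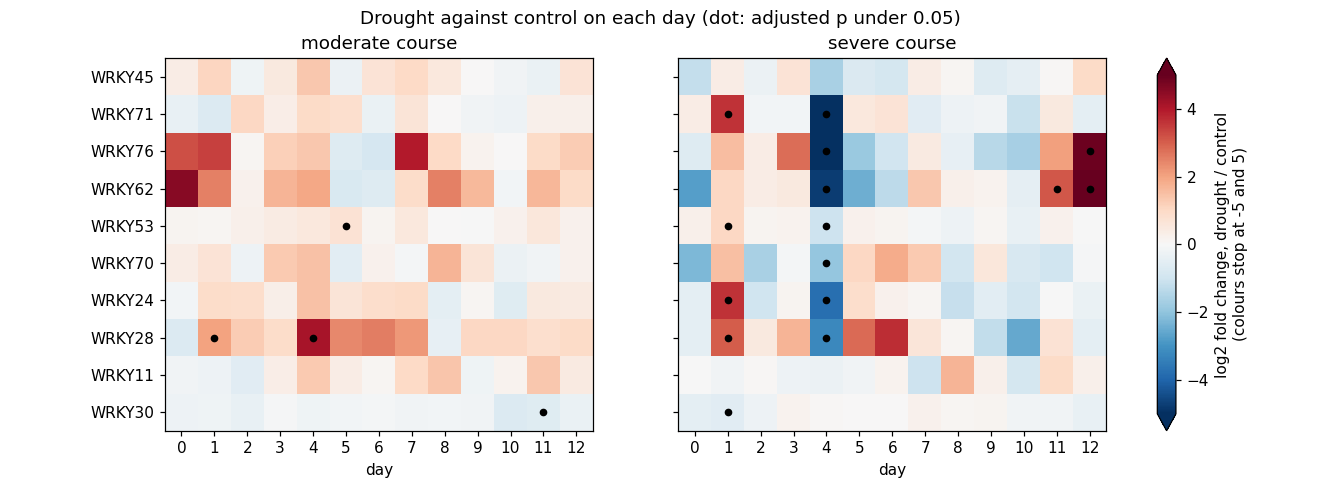
Log2 fold change, drought against control, of each of the 10 WRKY genes (rows) on each day (columns) of the moderate and the severe course; the colour scale stops at -5 and 5, and a dot marks an adjusted p under 0.05. Severe day 1 holds 4 higher and 1 lower call and severe day 4 holds 7 lower calls, while the moderate course has 4 calls in all.

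Over all days, 19 of the 260 tests of a gene on a day were called, 10 higher and 9 lower in drought, where 8.95% of such tests over all genes were called (4.18% higher, 4.77% lower). The moderate course held 4 of 130, against 5.87% (2.72% higher, 3.15% lower), and the severe course 15 of 130, against 12% (5.63% higher, 6.4% lower). Days 1 and 4 account for 12 of the 15. Without the 6 high libraries 12 of the 260 were called, 11 of them higher in drought and 1 lower, the fall of WRKY30 on moderate day 11, where 7.98% of such tests over all genes were called (3.89% higher, 4.09% lower). Severe days 1 and 4, with 8 of the 9 falls, then have an arm of 1 library each. In that count WRKY76 was called on moderate day 1 (log2 3.43, adjusted p = 0.018) and WRKY28 on severe day 5 (log2 2.84, adjusted p = 0.023). These few calls are scattered over both courses.

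For days 3-5, where both severe arms lay in the same library set, the mean difference was tested as well. In the moderate course WRKY28 (log2 2.49, SE 0.6, adjusted p = 0.00062) and WRKY53 (0.55, SE 0.13, adjusted p = 6e-04) rose, 2 of 10 against 32.5% of all genes called and 16.8% called higher. In the severe course WRKY71 (-1.78, SE 0.34, adjusted p = 1.3e-05), WRKY76 (-2.46, SE 0.98, adjusted p = 0.038) and WRKY62 (-2.23, SE 0.82, adjusted p = 0.022) fell, 3 of 10 against 39.4% called and 21.3% called lower. The severe falls again rest on day 4. Without the second and the third controls of day 4, WRKY28 was the gene called, and higher in drought. Without all 6 high libraries the values were 2.06 for WRKY28 (adjusted p = 0.011), -0.41 for WRKY71 (0.3), 0.37 for WRKY76 (0.78) and -0.31 for WRKY62 (0.89).

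On days 5-8 of the severe course WRKY28 rose, 1 of 10 against 28.5% of all genes called and 14.1% called higher. Its controls ran from 0 to 0.604 CPM (median 0.0969) and its drought libraries from 0 to 2.31 CPM (median 0.404), a log2 fold change of 1.81 (SE 0.7, 3.5-fold, adjusted p = 0.041). The daily log2 values were 2.83 (SE 1.08), 3.7 (SE 1.82), 0.6 and 0.11 on days 5, 6, 7 and 8, so days 5 and 6 carried the mean, and no day was called by itself. On day 5 the controls had 0, 0.313 and 0.303 CPM and the drought libraries 0.42, 2.31 and 1.35 CPM, the one day of the stretch without overlap. On day 6 they had 0.116, 0 and 0 CPM, which is 1 count in all, against 0.795, 0.466 and 0 CPM. Against the moderate controls of the same days, which lie in the set of 107 as the severe drought libraries do from day 6, it was 1.86 (adjusted p = 0.017). The call was lost without replicate 2 (adjusted p up to 0.26 over the alternatives) and without the filter on low counts. The other 9 genes lay between -0.7 (WRKY76, SE 0.68) and 0.83 (WRKY70, SE 0.62).

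On days 9-12 of the severe course WRKY62 rose, 1 of 10 against 44.7% of all genes called and 22% called higher. Its controls ran from 0 to 2.44 CPM (median 0.0875) and its drought libraries from 0 to 6.88 CPM (median 0.51). The log2 fold change was 2.26 (SE 0.66, 4.8-fold, adjusted p = 0.0028). On day 11 the controls had 0.24, 0.113 and 0 CPM and the drought libraries 2.66, 0.737 and 0 CPM (log2 3.11, SE 1.17, adjusted p = 0.049). On day 12 they had 0, 0.08 and 0 against 0.217, 0.516 and 6.88 CPM (log2 6.21, SE 1.35, adjusted p = 0.0015). Of all genes, 17.8% were called on day 11 and 8.5% on day 12, and 9.46% and 4.01% were called higher. Day 12 had no overlap, and day 11 overlapped at its lowest drought library. WRKY76 moved beside it on day 12, with 0.0839, 0.4 and 0 CPM in control and 0.606, 1.23 and 13.1 CPM in drought (log2 4.9, SE 1.33, adjusted p = 0.013), though over days 9-12 it was not called (0.97, SE 0.68, adjusted p = 0.25).

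The third drought library of day 12 held the largest values of both genes among the severe drought libraries of days 9-12. Without it none of the 10 was called on days 9-12. Against the moderate controls of the same days WRKY62 stood at 2.65 (adjusted p = 7.6e-05) and WRKY76 at 2.28 (adjusted p = 0.0043). Leaving out the 6 high libraries, which takes away the second control of day 10, gave 3.32 for WRKY62 (adjusted p = 1.8e-05) and 1.84 for WRKY76 (adjusted p = 0.0048). That control was among the 6 because of its high WRKY levels, so leaving it out raises drought over control by construction. The severe arms lay in different library sets on these days. Taking the set difference out of the model gave no test for WRKY62 and a call for WRKY71 at 1.29 (adjusted p = 0.026) in place of -0.33 (SE 0.3, adjusted p = 0.38). That estimate of the set difference is itself built on days that include the high controls of day 4.

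**Figure D5:**
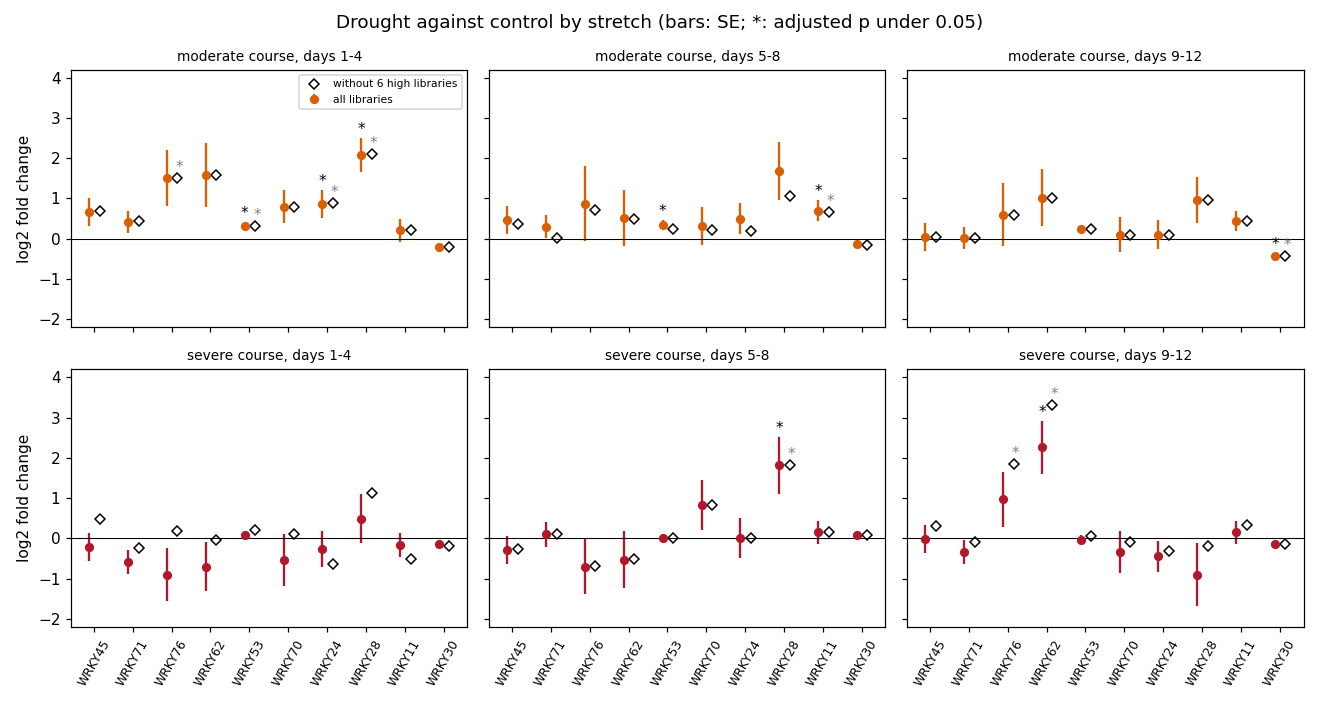
Log2 fold change, drought against control, with its SE as bars, for the 10 WRKY genes on days 1-4, 5-8 and 9-12 of both courses; diamonds are the values without the 6 high libraries, and stars mark calls (grey for the diamonds). None of the 6 libraries lies in moderate days 1-4 or 9-12, so WRKY28 (2.09) and WRKY30 (-0.44) could hardly move there. WRKY62 on severe days 9-12, which loses the second control of day 10, moves from 2.26 to 3.32.

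The 2 courses were then set against each other. The difference between the severe and the moderate response was called for 0 of the 10 genes on days 1-4, where 0.414% of all genes were called, on days 5-8 (0.533%) and on days 9-12 (11%). DESeq2 called 0 in each stretch too, with an adjusted p for 8 of the 10 on days 1-4. At an unadjusted p under 0.05 there were 3 genes on days 1-4, WRKY71 (log2 -1.01), WRKY76 (-2.41) and WRKY62 (-2.29), and 1 each later, WRKY53 on days 5-8 (-0.35) and WRKY30 on days 9-12 (0.29). WRKY28, WRKY24 and WRKY53 on days 1-4 or WRKY30 on days 9-12 were thus called in the moderate course without a shown difference from the severe course. Between stretches of the same course, days 9-12 against days 1-4, 0 of the 10 differed in the moderate course (19.7% of all genes; 0 by DESeq2 and 0 at an unadjusted p under 0.05) and 1 in the severe course, WRKY62 with a log2 difference of 2.97 (SE 0.92, adjusted p = 0.0054; 43.7% of all genes, 21.3% higher). Without the second and the third severe controls of day 4 that difference was 1.54 (adjusted p = 0.39). The severe arms lay in different library sets on days 1-2 and 9-12, which that WRKY62 difference also holds. Taking the set difference out gave no test for it. Severe drought and moderate drought libraries of days 6-12, which lie in the same set, were also compared directly. WRKY71 was lower in severe drought by 0.59 on the log2 scale (log2 -0.59, SE 0.22, adjusted p = 0.042) and WRKY30 higher (0.25, SE 0.07, adjusted p = 0.0078), 2 of 10 against 21.6% (10.5% higher, 11.1% lower). The WRKY71 call was lost when each of the 3 replicate numbers was left out in turn, without the 6 libraries and without the filter on low counts. The WRKY30 call was lost without replicate 2 (adjusted p = 0.11) and without replicate 3 (adjusted p = 0.086). This direct comparison has no controls in it, so it also holds any other difference between the courses. WRKY71 had lower medians in the severe than in the moderate controls too, which lie in different sets on these days. They were 5.63 against 9.79 CPM on days 5-8 and 6.21 against 7.63 CPM on days 9-12. In the moderate controls alone, 0 of the 10 differed between days 9-12 and days 1-4 (6.51% of all genes), with 1 at an unadjusted p under 0.05. It was WRKY53, at -0.32 (SE 0.11, adjusted p = 0.067), which DESeq2 on these libraries called (-0.32, adjusted p = 0.00013).

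On severe day 0, edgeR called 0 of the 10, where 1.31% of genes were called. DESeq2 called 0 of the 6 with an adjusted p, where 387 of 17073 genes were called. In the edgeR test 1 of the 10 had an unadjusted p under 0.05. WRKY30 had 5.83 to 6.09 CPM in its controls and 3.79 to 4.77 CPM in the drought pots, without overlap (log2 -0.5, SE 0.2, adjusted p = 0.19; unadjusted p = 0.014). On moderate day 0 the value was -0.26 (SE 0.19, adjusted p = 0.48), with overlap. Over the 13 days of the severe course, day 0 included, the drought mean was lower on 6 and higher on 7. Over days 5-8 the value was 0.08 (SE 0.1) and over days 9-12 it was -0.15 (SE 0.09, adjusted p = 0.19).

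Among themselves the 10 genes varied together only in part. Over the 52 group means of log2 CPM, the 45 pairs had correlations from -0.39 to 0.83 with a median of 0.23, and 12 pairs reached 0.5. The closest pairs were WRKY71 with WRKY24 (r = 0.83), WRKY71 with WRKY53 (0.77), WRKY76 with WRKY62 (0.77) and WRKY53 with WRKY28 (0.76). WRKY30 was negatively correlated with each of the other 9, between -0.39 and -0.04. These are descriptions over groups that share libraries and the high samples of day 4. Outside the 10, the gene most like WRKY53 was LOC_Os01g54600 (r = 0.87), a WRKY locus too, then LOC_Os02g43790 (0.85). WRKY76 and WRKY62 shared both of their closest genes, LOC_Os05g30500 (0.82 and 0.84) and LOC_Os09g34230 (0.81 and 0.76). WRKY71 was closest to LOC_Os05g41780 (0.92) and LOC_Os01g15270 (0.91), WRKY24 to LOC_Os04g58810 (0.87), and WRKY28 to LOC_Os09g24580 and LOC_Os02g11859 (0.83 each). The best likeness was lower for WRKY45 (LOC_Os07g41410, 0.76), WRKY70 (LOC_Os07g28850, 0.69), WRKY11 (LOC_Os04g32620, 0.62) and WRKY30 (LOC_Os06g11410, 0.58).

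Genes around the factors were described from lists placed on locus numbers from general knowledge, since the files name no genes. The counts below are descriptions, to be read beside the shares of all genes called in either direction, which were 42.5%, 28.7% and 23.9% on days 1-4, 5-8 and 9-12 of the moderate course and 47.4%, 28.5% and 44.7% of the severe course. Of 36 other WRKY loci 27 could be tested. On days 1-4, 6 rose and 5 fell in moderate drought, and 3 rose and 9 fell in severe drought. LOC_Os05g46020 rose by 1.07 (SE 0.25, adjusted p = 0.00019) in moderate drought, and LOC_Os01g09100 fell in both courses (-1.39, SE 0.3, and -1.42, SE 0.32). On days 9-12 none was called in the moderate course, and 2 rose and 6 fell in the severe course. The calls on days 1-4 come to 11 and 12 of 27, close to the shares over all genes, and the median log2 fold changes were 0.12 in the moderate and -0.21 in the severe course.

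Upstream of the factors, the list of salicylic acid signalling and MAP kinase genes had 7 of 8 tested. In moderate drought 2 rose on days 1-4, and in severe drought 2 rose and 3 fell on days 1-4 and 5 fell on days 9-12. LOC_Os03g12390 rose on days 1-4 of both courses (0.55, SE 0.13, and 0.46, SE 0.14). LOC_Os01g09800 fell on severe days 9-12 (-0.64, SE 0.17, adjusted p = 0.0011). Of the jasmonate synthesis and JAZ list, with 12 of 18 tested, 4 fell on moderate days 9-12 and 9 on severe days 9-12 with none rising. LOC_Os09g26780 was at -1 (SE 0.34) and -2.13 (SE 0.38) in those stretches. The jasmonate genes peaked in the second severe control of day 4, and 9 of them fell on severe days 3-5, whose controls include it.

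Downstream, few defence products could be read in these data. Of those listed, 2 of 15 diterpenoid genes and 3 of 7 pathogenesis-related and chitinase genes lie on the chromosomes at 0. Of 15 diterpenoid phytoalexin genes 4 were tested, of which 1 fell on days 1-4 in each course (LOC_Os02g36140, -0.68, SE 0.08, in both), 1 on moderate days 9-12 and 3 on severe days 9-12. Of 7 pathogenesis-related and chitinase genes 2 were tested, and LOC_Os06g51060 rose on severe days 9-12 (0.8, SE 0.3, adjusted p = 0.023). Of 11 abscisic acid and drought markers, 5 were tested and 4 were on the chromosomes at 0. In moderate drought 3 of the 5 rose on days 1-4, 5 on days 5-8 and 2 on days 9-12. In severe drought 2, 1 and 2 of the 5 rose, with no fall in these stretches, while on severe days 3-5 there were 2 rises and 1 fall. LOC_Os03g21060 rose by 2.21 (SE 0.37, adjusted p = 6.1e-07) on moderate and 3.27 (SE 0.46, adjusted p = 2.3e-09) on severe days 1-4, days on which WRKY45 was not called in either course.

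Of 8 clock genes 7 were tested, and 3 rose on days 1-4 in each course, 4 on moderate days 9-12 and 5, with 2 falling, on severe days 9-12. LOC_Os08g06110 rose by 0.77 (SE 0.2) and 0.91 (SE 0.21) on days 1-4. On severe days 1-4 these rises stood beside 0 WRKY calls of 10, and on moderate days 9-12 beside a fall of WRKY30 alone. Of the 3 leaf markers tested, 2 rose on days 9-12 in each course and 1 fell on severe days 1-4. The 1 root marker tested rose on moderate days 5-8 (0.45) and severe days 1-4 (0.28). The share of other tissue or of sampling time in the WRKY values was not tested.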

How the data were processed

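The authors deposited raw read counts per gene in 1 table for all libraries, made from stranded polyA libraries per the labels' protocols. Per the submitters' processing notes, STAR was the aligner, featureCounts 2.0.0 the counter and IRGSP-1.0 the build. Not given in the sources used here are the strand setting, the STAR version and how multi-mapped reads were handled. Reads of overlapping or near-identical genes, which may include paralogous WRKY genes, could therefore be split or shared. Columns were matched to samples by name, and 4 columns of per-sample values matching no sample were not used. No pair of columns was identical, and the lowest chi-square per gene between libraries of a group was 7.05.

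Counts were analysed with edgeR 4.0.16 in R 4.3.3 (limma 3.58.1). Genes were kept by filterByExpr (minimum count 10, minimum total 15) and scaled by TMM. A quasi-likelihood model with 52 groups and 104 residual degrees of freedom was fitted to all libraries. P-values were adjusted by Benjamini and Hochberg over the 19338 genes tested, with a threshold of 0.05. The standard error is the size of the log2 fold change divided by the root of F; log2 CPM was computed with a prior count of 2. Methods were tested on simulated counts. Alternatives were DESeq2 size factors, no filter, separate fits of each comparison by edgeR or by DESeq2 1.42.0, replicate blocks, leaving out replicates, the library set taken out, and moderate in place of severe controls. Leaving out the 6 high libraries, the severe controls 2 and 3 of day 4, or the third drought library of severe day 12 was chosen after seeing the data.

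The 10 genes and the lists (other WRKY loci, salicylic acid and MAP kinase, diterpenoid, pathogenesis-related, jasmonate and JAZ, abscisic acid and drought, clock, leaf and root) were chosen with earlier results of these data known. Named were all 10 genes, of each list up to 2 called genes in each direction on days 1-4 or 9-12 with the largest changes, and the 2 genes most like each of the 10, of which some are printed. Genes named by their level in a high library were chosen after their values were seen. Same-numbered drought and control libraries were not shown to be paired: 13 of 78 pairs had correlated deviations over 0.1. The table of gene names at hand matched none of the identifiers, so no coordinates or sequences are given.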

Additional observations from a re-analysis of the deposited data

Results flagged for a closer look

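In WRKY62, the group IIa repressor, drought against control differed between the late and the early days of the severe course. In the test set on that difference, the late minus the early value was 2.97 on the log2 scale (SE 0.92, adjusted p = 0.0054, edgeR). The mean values were -0.71 on days 1-4 and 2.26 on days 9-12. On days 1-2 the drought libraries lay in the set of 49 and the controls in the set of 107. On days 9-12 this was reversed, so library set and drought response cannot be told apart here. With the set difference taken out, no test of WRKY62 was possible. Without the third drought library of day 12, where WRKY62 had 6.88 CPM, the difference was 2.27 (adjusted p = 0.031). Without the second and the third severe controls of day 4 it was 1.54 (adjusted p = 0.39), and without all 6 high libraries 3.36 (adjusted p = 0.11).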

How the results depend on the processing

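Of 28 calls of single WRKY genes, 5 held in every alternative tried. They were WRKY28 on moderate days 1-4 and 3-5, WRKY53 on moderate days 3-5 and severe day 1, and WRKY30 on moderate days 9-12. In these moderate stretches, leaving out the 6 high libraries or the severe controls 2 and 3 of day 4 removed no library compared. The same alternatives take libraries out of several severe calls, so moderate and severe calls did not face like tests. For severe day 1, taking out the library set was not among the alternatives, although the arms lay in different sets. Without the 6 high libraries the drought arm of that day was 1 library. Over 303 alternatives of the 28 calls, 224 kept the call, 68 lost it and 11 changed sign. The limits are the sparse counts of WRKY28, WRKY62, WRKY70, WRKY76 and WRKY11, 3 libraries a group, and a few libraries that carry much of the severe results. Counts below are genes of the 10 called. They are descriptions only, since the share of all genes called is printed for only some of these fits.

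With edgeR on the libraries compared only, the count was 6 (5 higher, 1 lower) on moderate days 1-4, 1 on days 5-8, 2 on days 9-12, 4 on days 3-5, 0 on severe days 9-12, 1 on severe days 3-5, 0 for severe days 9-12 minus 1-4, 1 for the moderate controls, 2 on severe day 1 and 0 on severe day 4; on the libraries of each day it gave 7 calls over all days. In these separate fits sparse genes could miss the filter: 8 to 10 of the 10 genes were tested in the averages over days, 6 on severe day 1 (WRKY24 and WRKY28 not among them) and 5 on severe day 4, where edgeR called 0 of all genes. Over all days 151 of 260 tests could be made. Of all genes, these edgeR fits called 9144 of 17944 on moderate days 1-4, 4699 of 18071 on days 9-12 and 6687 of 17706 on days 3-5. They called 4139 of 16551 on severe day 1. The DESeq2 fits called 9205 of 19333, 4950 of 19334 and 6805 of 19325 genes in the same 3 moderate stretches. DESeq2 on the libraries compared gave 6 on moderate days 1-4, 2 on days 9-12, 4 on days 3-5, 1 for the moderate controls and 4 on severe day 4, with no adjusted p for WRKY70 on severe day 1 or WRKY24 on severe day 4. Without the filter on low counts, it was 1 on moderate days 5-8, 0 on severe days 5-8 and 1 for severe against moderate drought. The pairing was not shown, and a replicate block within course and day gave 5 on moderate days 1-4 and 2 for severe days 9-12 minus 1-4.

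Leaving out each replicate number gave 1 to 3 on moderate days 1-4, 0 to 2 on days 5-8, 1 to 2 on days 9-12 and 0 to 1 for days 9-12 minus 1-4. In the severe course it gave 0 to 1 on days 1-4, 0 to 1 on days 5-8, 0 to 2 on days 9-12, 0 to 2 on days 3-5, 0 to 1 for days 9-12 minus 1-4, 0 to 1 against moderate drought, 3 to 6 on day 1, 2 to 7 on day 4, and 8 to 19 over all days of both courses. Without the third drought library of severe day 12 the count on days 9-12 was 0. With the library set taken out it was 1 on severe days 1-4 (WRKY71, -1.41), 2 on days 5-8 (WRKY28 and WRKY71) and 1 for the severe minus moderate difference on days 1-4, and with moderate controls 2 on severe days 9-12.

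Without the 6 high libraries the count was 1 on moderate days 5-8, 4 on moderate days 3-5, 2 on severe days 9-12, 1 on severe days 3-5, 0 for severe days 9-12 minus 1-4, 1 for the moderate controls and 12 over all days. None of the 6 lies in moderate days 3-5 or among the moderate controls, so no library compared was left out there. Without the severe controls 2 and 3 of day 4 the count was 1 on severe days 1-4, 1 on severe days 3-5 and 1 for the moderate controls, which again lost no library. Signs changed without the 6 high libraries, and without those 2 controls, for WRKY76 on severe days 3-5 (0.37 and 0.36) and, on severe day 4, for WRKY76 (0.18 and 0.16), WRKY62 (1.02 and 1), WRKY70 (0.34 and 0.33) and WRKY28 (1.63 and 1.62). WRKY24 on severe day 1 changed to -0.16 without the 6. Where a group averaged over had no count of a gene, no test was possible, which concerns WRKY62 in every contrast with the library set taken out and some averages without a replicate for WRKY28, WRKY62, WRKY70 and WRKY76. The cause of the other changes was not tested.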
